A study of Homo sapiens with 4 samples.

Results

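Cytochrome P450 enzymes are haem proteins that use molecular oxygen and electrons from a redox partner to oxidise small molecules. Most sit in the endoplasmic reticulum and take electrons from the reductase POR, while those of the inner mitochondrial membrane take them from ferredoxin. In the lung they are known for activating components of tobacco smoke, and elsewhere for making and breaking down eicosanoids, sterols, bile acids, vitamin D and retinoic acid. The 54 genes described here were chosen by name: every protein-coding row whose symbol is CYP followed by a family number, a subfamily letter and a member number, with CYP51A1 left out. They are 54 of 57820 gene rows.

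RNA was counted in 4 bulk libraries from A549, a human lung adenocarcinoma cell line in wide use. Parental A549 cells with epithelial morphology gave 2 libraries. The mesenchymal-like cells called TD in the labels gave the other 2; they are A549 cells that received transforming growth factor β (TGFβ, 2 ng/ml) every 3 days. Both lines grew in DMEM with 10% FBS and gentamycin. The labels do not say whether libraries came from separate cultures, nor how long TD cells were treated or whether TD is 1 clone, so p-values cover the spread among these libraries and that spread may be technical.

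Gene counts per library ran from 26729278 to 44133836. Levels are CPM (library-size-scaled counts, with edgeR's TMM scaling). A change is the log2 of TD divided by A549, from edgeR's quasi-likelihood test with Benjamini-Hochberg adjustment over 17785 tested genes. A gene is called at an adjusted p below 0.05. TD replicate 2 stood apart in its pseudogene rows, which took 0.373% of its counts against 1.11% to 1.15% in the other libraries. Markers followed the labels: 5 of 5 epithelial genes were called lower in TD (summed level 15317 and 16118 CPM in A549, 1729 and 2070 in TD) and 5 of 5 mesenchymal genes higher (472 and 476 against 7922 and 8727). Genes that define lung alveolar type 2 and club cells never exceeded 6 counts, with SFTPA1 at 0 throughout. The endothelial markers CDH5 and VWF never exceeded 3 counts, and PECAM1, also chosen, had no row under that symbol. Of 5 haematopoietic markers CD3E and MS4A1 were at 0 and CD14 alone was tested. The 5 fibroblast markers summed to 5.35 and 5.46 CPM in A549 and 261 and 296 CPM in TD. COL1A1 gave 3.74 and 3.84 CPM of this in A549 and nearly all of it in TD. LUM was called lower (1.37 and 1.42 CPM against 0.172 and 0.148 CPM, adjusted p = 0.00274). The part of these cell states in the P450 values was not tested.

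P450 RNA in parental cells was dominated by a few genes, and most of these were far lower in TD. CYP1B1, CYP2S1, the 4 tested CYP4F genes and CYP26A1, which was at a mean of 1.03 CPM in A549, were called lower by more than 10-fold. CYP24A1 remained the most abundant P450 RNA in both lines, and 3 genes were called modestly to several-fold higher. Of the 54 genes, 20 passed the expression filter. Of these 20, 10 were called lower, 3 higher and 7 in neither direction. Among all tested genes, 43.0% were called, 21.4% lower and 21.6% higher. At least 2-fold lower were 8 of the 20, against 12.3% of all tested genes, and at least 2-fold higher was 1, against 9.49%. The median log2 change was -0.92 over these 20 genes and -0.04 over all tested genes. Genes that passed the filter through a high level in only 1 line had to differ, so these shares are a description. Counts of calls moved when a library was dropped. There were 5 lower and 1 higher without A549 replicate 1, 6 and 1 without A549 replicate 2, 11 and 5 without TD replicate 1, and 11 and 4 without TD replicate 2. With protein-coding rows alone, leaving out each library in turn gave 10 to 12 lower and 2 to 4 higher.

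**Figure D1:**
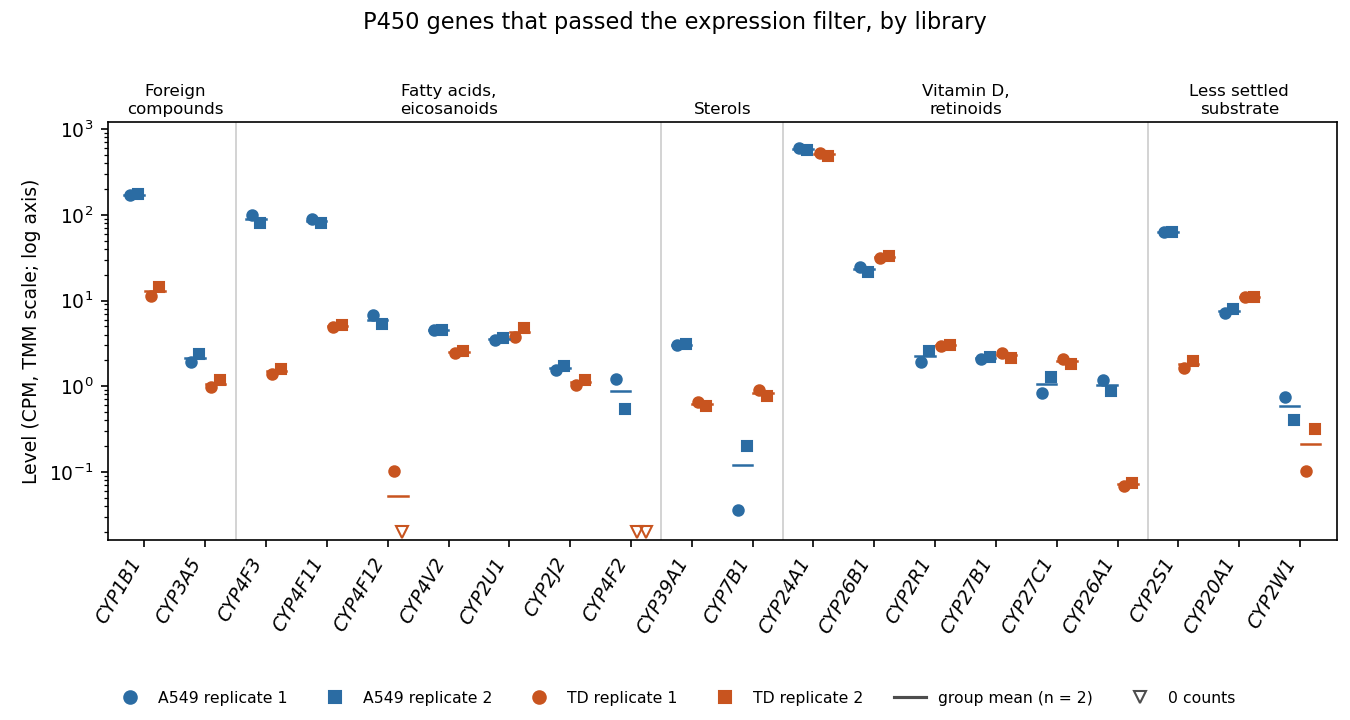
Level of each of the 20 tested P450 genes in CPM on a log axis, grouped by substrate class; blue points are A549 and orange points TD (circles replicate 1, squares replicate 2), short lines are group means (n = 2) and open triangles are libraries with 0 counts. CYP1B1, CYP4F3, CYP4F11 and CYP2S1 lie between 62.6 and 174 CPM in A549 and between 1.38 and 14.3 CPM in TD.

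The summed level of the 54 genes was 1095 and 1021 CPM in the A549 libraries and 605 and 576 CPM in the TD libraries. Groups did not overlap in this sum. CYP24A1 alone supplied 55.7% and 55.2% of all P450 counts in A549 and 86.8% and 85.0% in TD. Without it, the sum was 485 and 457 CPM in A549 and 79.9 and 86.3 CPM in TD. Bulk counts cannot tell fewer cells that express a gene from less RNA per cell. On the scale of CPM per kilobase of annotated exon, the mean level in A549 was 148 for CYP24A1, 28.7 for CYP1B1, 22.0 for CYP2S1, 21.0 for CYP4F11, 16.3 for CYP4F3 and 4.60 for CYP26B1. CYP2S1 and CYP4F11 did not differ beyond their spread (SD 0.259 and 1.43, n = 2), and with the longest transcript as the length they came in the other order, at 22.7 and 26.8. In TD the order by the same scale was CYP24A1 at 128, CYP26B1 at 6.45, CYP20A1 at 3.57, CYP1B1 at 2.12 and CYP4F11 at 1.25.

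**Figure D2:**
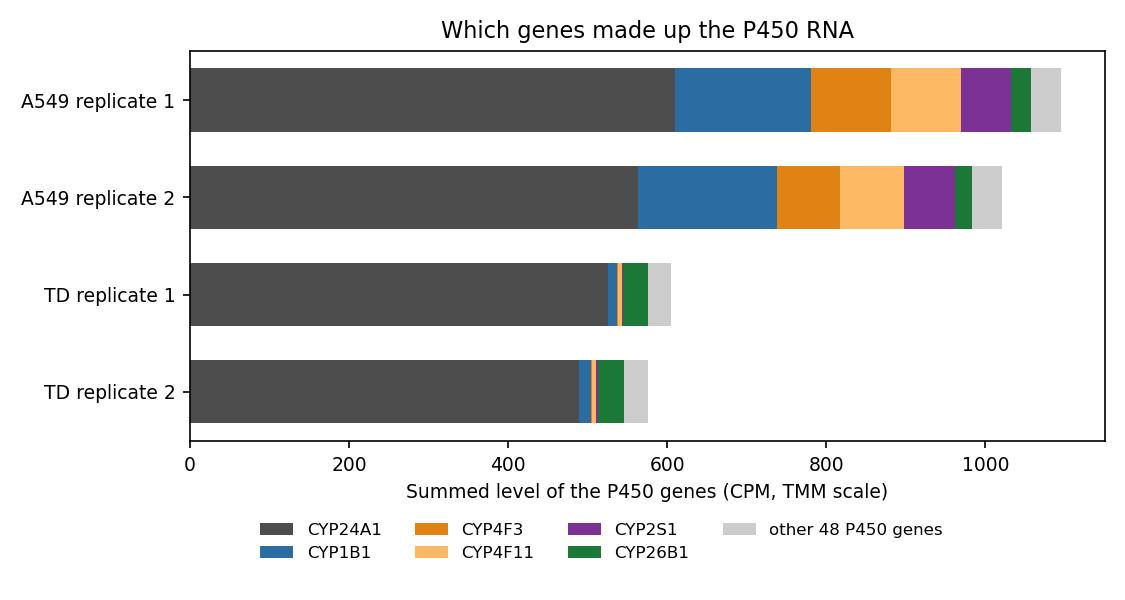
Summed level of the P450 genes in each library in CPM, split into the 6 genes with the highest mean CPM in A549 and the other 48 genes. The dark CYP24A1 segment is of similar length in all 4 bars, while the CYP1B1, CYP4F3, CYP4F11 and CYP2S1 segments are short in both TD bars.

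Sequences upstream of 3 of the strongly lowered genes are shown because CYP4F3 and CYP4F11 lie in 1 gene cluster and fell together, and CYP2S1 lies on the same chromosome outside that cluster. Each is the stretch of 250 bases before 1 annotated start per gene, from RefSeq on GRCh38.p14, written 5′ to 3′ on the gene's strand. Any other starts of a gene were not searched. CYP4F3 is chr19:15641062-15641311 on the plus strand, CYP4F11 is chr19:15934868-15935117 on the minus strand, and CYP2S1 is chr19:41192969-41193218 on the plus strand. Capitals mark matches on either strand to 5 short patterns: GCGTG (core of the aryl hydrocarbon receptor element), TGACTCA (AP-1), CAGACA (SMAD), CACCTG (E-box) and TGACNNNGC (NRF2).
CYP4F3: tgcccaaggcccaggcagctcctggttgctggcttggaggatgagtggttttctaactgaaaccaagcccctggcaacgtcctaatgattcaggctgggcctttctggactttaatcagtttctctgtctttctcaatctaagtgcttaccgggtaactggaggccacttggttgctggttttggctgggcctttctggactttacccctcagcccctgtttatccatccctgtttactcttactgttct
CYP4F11: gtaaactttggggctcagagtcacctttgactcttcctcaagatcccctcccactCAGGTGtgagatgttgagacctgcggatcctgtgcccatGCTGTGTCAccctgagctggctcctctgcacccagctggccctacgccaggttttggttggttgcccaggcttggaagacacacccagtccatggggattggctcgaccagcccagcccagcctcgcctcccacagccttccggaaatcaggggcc
CYP2S1: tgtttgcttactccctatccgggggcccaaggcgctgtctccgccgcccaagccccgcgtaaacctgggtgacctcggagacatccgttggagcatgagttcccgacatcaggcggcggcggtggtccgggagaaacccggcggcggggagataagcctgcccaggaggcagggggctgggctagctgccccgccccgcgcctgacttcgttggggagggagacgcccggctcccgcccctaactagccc

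In the CYP4F11 stretch the E-box letters lie at bases -195 to -190 and the NRF2 letters at bases -156 to -148 from the start. The stretches before CYP4F3, CYP2S1, CYP26A1 and CYP39A1 held none of the 5 patterns. Over the 15 tested P450 genes in that table, GCGTG occurred in 3 (31.9% of 27303 promoters), CACCTG in 3 (17.5%), CAGACA in 2 (13.6%), TGACNNNGC in 2 (11.04%) and TGACTCA in 0 (4.16%). No overlap between matches was seen in the CYP4F11 stretch. These matches are letters in a window, not sites of binding.

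Of 16 enzymes known mainly for foreign compounds, 2 were tested, and both were called lower, against 21.4% of all tested genes. CYP1B1 (ENSG00000138061.7), which hydroxylates oestradiol and activates polycyclic hydrocarbons, stood at 171 and 174 CPM in the A549 libraries and at 11.2 and 14.3 CPM in the TD libraries. The mean went from 173 ± 2.25 to 12.8 ± 2.24 CPM (SD, n = 2), and both TD libraries lay far below both A549 libraries. The log2 change was -3.75 (SE 0.14, adjusted p = 9.02e-05 by edgeR), a 13.5-fold drop. The antisense row CYP1B1-AS1 had 33 and 39 counts in A549 and 3 and 7 in TD, against 4758 and 5166 and then 324 and 583 for CYP1B1. CYP3A5, the CYP3A form known from extrahepatic tissues, was at 1.90 and 2.39 CPM in A549 and at 0.965 and 1.18 CPM in TD, without overlap. Its log2 change of -0.996 (SE 0.28) was called at an adjusted p of 0.0396. That call was lost without A549 replicate 1 (adjusted p = 0.0983), without A549 replicate 2 (0.187), after thinning to the smallest library (0.0734) and by DESeq2 (0.194).

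The other 14 genes of this class were under the filter, with at most 13 counts in any library. CYP1A1, the textbook target of the aryl hydrocarbon receptor, had 3 and 1 counts in A549 and 5 and 3 in TD. CYP1A2 had 0 counts in all 4 libraries. CYP2E1, which oxidises ethanol, had 3 and 5 counts in A549 and 0 in both TD libraries, and CYP2B6 had 3 and 7 against 0 and 0. CYP3A7 held the highest count under the filter, 13 and 7 in A549 and 2 and 6 in TD. CYP3A4, the main drug-oxidising form of adult liver, had 2 and 3 counts in A549 and 0 in TD. Some of these genes, picked after their values were seen, had lower counts in TD. The intervals given for them cover counting error only and make no allowance for that choice. CYP3A7 was 3.03-fold lower by counts (95% exact interval 1.28 to 7.95) and CYP2F1, a lung form, 7.27-fold lower (1.62 to 66.9), while CYP2B6 was at least 4.04-fold and CYP2E1 at least 3.23-fold lower with 3 counts over the TD group as the limit. With no expression filter edgeR called CYP2B6 lower (adjusted p = 0.0282), but not CYP2E1 (0.0552), CYP2F1 (0.107) or CYP3A7 (0.128). On the TMM scale a count of 0 in a library allows up to 0.0738 to 0.108 CPM, taking 3 counts as the limit for counting error only.

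**Figure D3:**
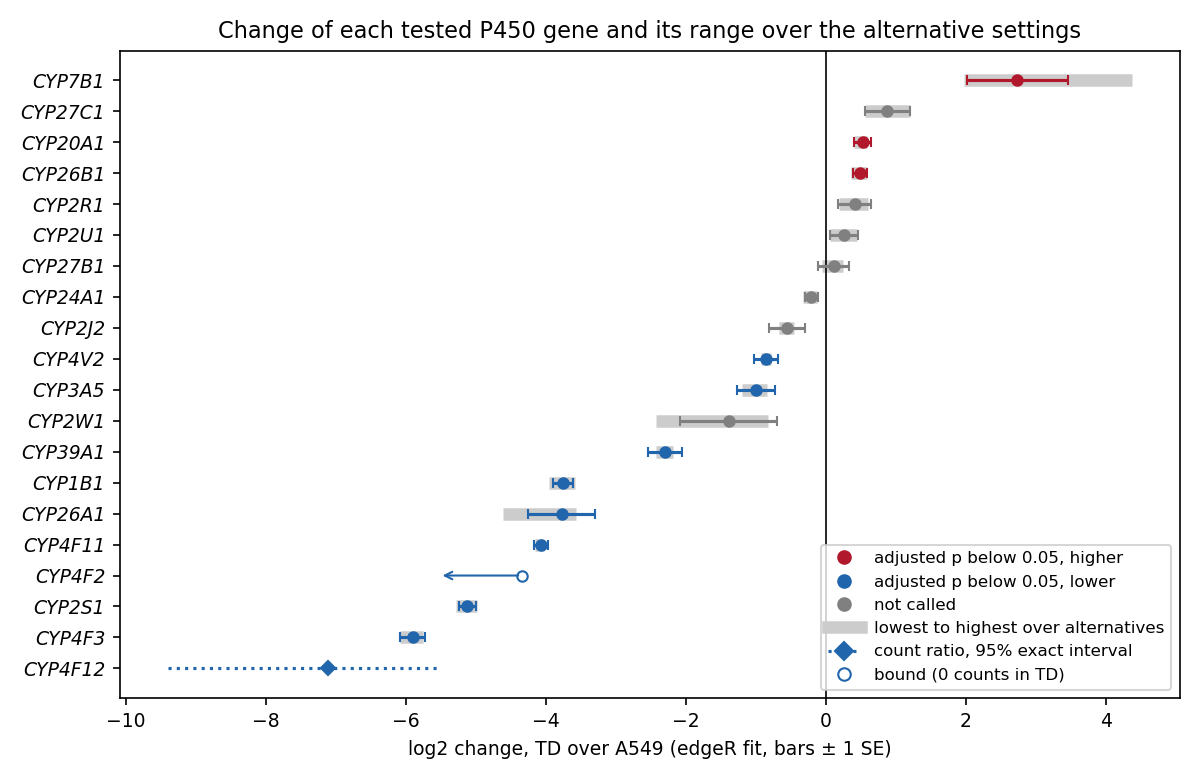
The log2 change of TD over A549 for the 20 tested P450 genes, with bars of 1 SE, colour for the call and a grey band from the lowest to the highest value over the alternative settings. CYP4F12 is drawn as its count ratio with a 95% exact interval and CYP4F2 as a bound; CYP1B1, CYP2S1, CYP4F3, CYP4F11 and CYP39A1 keep narrow bands far below 0.

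The CYP4F genes hydroxylate the ends of fatty acids, leukotrienes and vitamin K. Together they were at 197 and 166 CPM in A549 and at 6.44 and 6.76 CPM in TD. CYP4F3 (ENSG00000186529.10), the leukotriene B4 hydroxylase, was at 99.99 and 79.4 CPM in A549 and at 1.38 and 1.60 CPM in TD. CYP4F11 (ENSG00000171903.12), which acts on long-chain 3-hydroxy fatty acids and on vitamin K, was at 88.8 and 80.7 CPM in A549 and at 4.96 and 5.14 CPM in TD. Means were 89.7 ± 14.5 and 1.49 ± 0.156 CPM for CYP4F3 and 84.8 ± 5.74 and 5.05 ± 0.125 CPM for CYP4F11 (SD, n = 2), and for both genes the gap between the lines was larger than the difference between replicates. The log2 change was -5.90 for CYP4F3 (SE 0.18, adjusted p = 5.68e-05) and -4.07 for CYP4F11 (SE 0.10, adjusted p = 3.68e-05), or 59.7-fold and 16.8-fold lower. In A549 the CPM of CYP4F3 was 1.13 and 0.984 times that of CYP4F11, and in TD it was 0.278 and 0.311 times. The difference between these genes was not tested.

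CYP4F12, which hydroxylates arachidonic acid and antihistamines, had 186 and 157 counts in A549 and 3 and 0 in TD. By counts it was 139-fold lower in TD (95% exact interval 47.0 to 675, counting error only), and the edgeR call had an adjusted p of 0.00307. CYP4F2, the vitamin K and arachidonic acid hydroxylase, had 34 and 16 counts in A549 and 0 in both TD libraries, at least 20.2-fold lower with 3 counts over the TD group as the limit (adjusted p = 0.0113). Both calls were lost without A549 replicate 1 (adjusted p = 0.0613 and 0.130) and without A549 replicate 2 (0.0526 and 0.0627). With protein-coding rows alone and the same library left out, neither was lost. The remaining CYP4F genes, CYP4F8 and CYP4F22, had at most 1 count in any library.

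Sequence likeness within the subfamily was measured on the longest annotated transcripts. Of all 75-base windows, the length of 1 read, 4.28% of CYP4F3 and 9.13% of CYP4F2 recurred in the other of these genes. CYP4F12 shared 0.66% with the pseudogene CYP4F24P, and CYP4F11 shared none with any other gene. Reads from shared windows can be given to no gene or to the wrong one, so CYP4F2, with 50 counts in all beside 5139 of CYP4F3 in A549, is the less certain value.

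**Figure D4:**
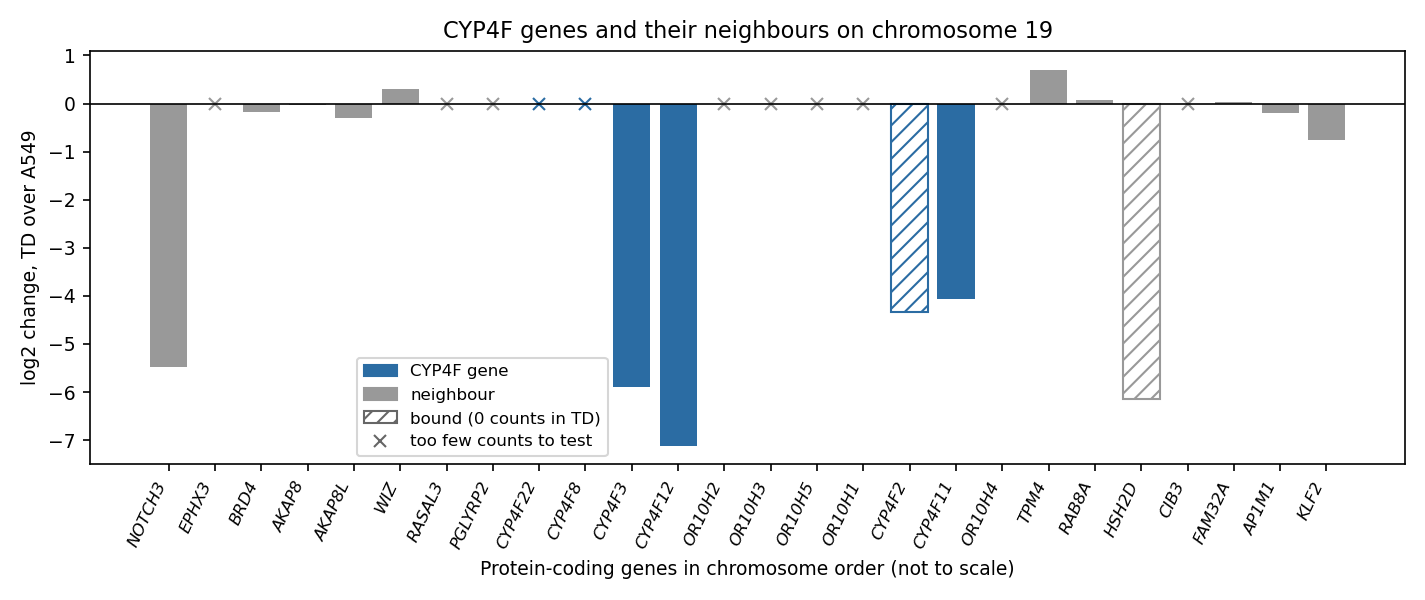
The log2 change of TD over A549 for the CYP4F genes and the 8 protein-coding genes on each side, in chromosome order on chromosome 19 (not to scale). The CYP4F12 bar is its count ratio, hatched bars are bounds for genes with 0 counts in TD, and crosses are genes with too few counts to test; the 4 tested CYP4F genes all point down, and of the 11 tested flanking genes NOTCH3 and HSH2D were called lower.

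The order of genes around the CYP4F cluster was taken from GENCODE 29. Between CYP4F12 and CYP4F2 lie 4 olfactory receptor genes, all with 0 counts in each library. Of the 16 flanking protein-coding genes, 11 were tested, 2 were called lower and 1 higher, against 43.0% of all tested genes called in either direction. NOTCH3, a Notch receptor, went from 226 and 196 CPM in A549 to 5.17 and 4.30 CPM in TD. HSH2D, an adaptor of lymphocytes, had 2.87 and 3.17 CPM in A549 and 0 counts in TD, at least 70.3-fold lower. TPM4, a tropomyosin, rose from 635 and 665 CPM to 1025 and 1096 CPM. The nearest tested genes before the cluster, WIZ and AKAP8L, were not called (log2 changes 0.30 and -0.31, adjusted p = 0.0762 and 0.0533).

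CYP4V2, CYP2J2 and CYP2U1, which also act on fatty acids, were measured at a few CPM each. CYP4V2, an omega-hydroxylase gene mutated in a corneoretinal dystrophy, was at 4.56 and 4.52 CPM in A549 and at 2.41 and 2.61 CPM in TD. The libraries did not overlap, and the log2 change was -0.85 (SE 0.18, adjusted p = 0.0166). That call was lost without A549 replicate 1 (0.0830), without A549 replicate 2 (0.0801) and by DESeq2 (0.0749). CYP2J2, an arachidonic acid epoxygenase, was at 1.54 and 1.72 CPM in A549 and at 1.03 and 1.18 CPM in TD (adjusted p = 0.153, not called). CYP2U1 was at 3.45 and 3.67 CPM in A549 and at 3.72 and 4.795 CPM in TD (adjusted p = 0.372, not called). Its libraries did not overlap, but the gap was smaller than the difference between replicates, and it was called higher without TD replicate 1 (0.0466). CYP4A11 and CYP4B1 had at most 1 count in any library.

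Most of the listed sterol and steroid enzymes were nearly silent in both lines, while CYP51A1, left out by the name rule, is described below. Of 12 genes, 10 were under the filter, with at most 6 counts in any library, and CYP7A1, CYP11B1, CYP11B2 and CYP21A2 had 0 counts throughout. CYP19A1, the aromatase that makes oestrogens, had 1 count in a single A549 library. The 2 tested genes went opposite ways. CYP39A1 (ENSG00000146233.3), the 24-hydroxycholesterol 7-alpha-hydroxylase, was at 3.05 and 3.07 CPM in A549 and at 0.655 and 0.590 CPM in TD, a log2 change of -2.29 (SE 0.24, adjusted p = 0.00204). CYP7B1 (ENSG00000172817.3), the oxysterol 7-alpha-hydroxylase, had 1 and 6 counts in A549 and 26 and 31 in TD. Its TD libraries, at 0.896 and 0.762 CPM, lay above both A549 libraries, at 0.036 and 0.202 CPM. The log2 change was 2.74 (SE 0.72, adjusted p = 0.0344), a 6.67-fold difference that moved to 3.94-fold (1.98) without A549 replicate 1 and to 20.6-fold (4.37) without A549 replicate 2. The call was lost without A549 replicate 1 (adjusted p = 0.119) and by DESeq2 (0.0503).

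Vitamin D and retinoid enzymes held the most abundant P450 RNA. CYP24A1 (ENSG00000019186.5), the mitochondrial 24-hydroxylase that inactivates vitamin D hormone, was at 610.0 and 564 CPM in A549 and at 525 and 489 CPM in TD. The means were 587 ± 32.6 and 507 ± 25.4 CPM (SD, n = 2), and both TD libraries were lower, by 1.16-fold. The log2 change was -0.21 (SE 0.09) and was not called (adjusted p = 0.133). Among the alternatives that called it lower were those without TD replicate 1 (-0.25, adjusted p = 0.0324), with pseudogenes left out (-0.24, 0.0394), and with protein-coding rows alone without TD replicate 1 (-0.32, 0.00908). VDR, the vitamin D receptor that drives CYP24A1, rose from 18.9 and 18.3 CPM to 27.4 and 30.5 CPM (log2 change 0.64, SE 0.09, adjusted p = 0.00541).

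The enzymes that activate vitamin D were at low levels in both lines. CYP2R1, the main 25-hydroxylase, was at 1.94 and 2.56 CPM in A549 and at 2.96 and 3.02 CPM in TD (adjusted p = 0.223). CYP27B1, the 1-alpha-hydroxylase, was at 2.05 and 2.19 CPM in A549 and at 2.45 and 2.14 CPM in TD, so the lines overlapped (adjusted p = 0.716). Neither was called. Of 5 genes of vitamin D handling, 2 could be tested, and VDR was the only call, against 43.0% of all tested genes called in either direction.

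The retinoic acid hydroxylases differed in direction. CYP26A1 (ENSG00000095596.7), the retinoid-inducible form, had 33 and 26 counts in A549 and 2 and 3 in TD, or 1.19 and 0.876 CPM against 0.069 and 0.074 CPM. The log2 change was -3.77 (SE 0.48, adjusted p = 0.00356), and the call was lost without A549 replicate 1 (0.0617). Of the windows of CYP26A1, 31.2% recur in transcripts of AL358613.3, so part of its reads may have been given to no gene. CYP26B1 (ENSG00000003137.4), its paralog, was at 24.9 and 21.2 CPM in A549 and at 31.7 and 33.0 CPM in TD. The means were 23.1 ± 2.59 and 32.4 ± 0.875 CPM (SD, n = 2) without overlap, and the log2 change was 0.49 (SE 0.11, adjusted p = 0.0187). The CYP26B1 call was lost without A549 replicate 2 (0.0686). CYP26C1 had 0 counts in all libraries. CYP27C1, which desaturates retinoids, was at 0.826 and 1.28 CPM in A549 and at 2.07 and 1.82 CPM in TD. It was not called (log2 change 0.88, SE 0.32, adjusted p = 0.0835), but it was under 8 alternatives, among them protein-coding rows alone (0.0163), without TD replicate 1 (0.0137) and without TD replicate 2 (0.00452).

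Other genes of retinoid handling were called in both directions. Of 13 genes, 12 were tested, 5 were called lower and 2 higher, against 21.4% lower and 21.6% higher among all tested genes. DHRS3, which returns retinal to retinol, was at 47.4 and 45.4 CPM in A549 and at 1.65 and 2.43 CPM in TD (log2 change -4.48, SE 0.19, adjusted p = 0.000121). ALDH1A2, which makes retinoic acid from retinal, had 16 and 11 counts in A549 and 3 and 2 in TD (log2 change -2.62, SE 0.67, adjusted p = 0.0322), a call lost without A549 replicate 1 (0.261), without A549 replicate 2 (0.144) and by DESeq2 (0.144). Its family members ALDH1A1 and ALDH1A3, in the same list, were not called by edgeR (adjusted p = 0.522 and 0.425). ALDH1A1 was at 6645 and 6899 CPM in A549 and at 7365 and 7148 CPM in TD. ALDH1A3 was at 5.68 and 6.74 CPM in A549 and at 7.48 and 6.62 CPM in TD. STRA6, a membrane protein of retinol uptake, rose from 19.6 and 15.8 CPM to 107 and 113 CPM (log2 change 2.63, SE 0.13, adjusted p = 0.000175). RARA, a retinoic acid receptor, was at 16.8 and 14.5 CPM in A549 and at 19.5 and 23.1 CPM in TD (adjusted p = 0.0466), a call lost without A549 replicate 1 (0.0819) and replicate 2 (0.177). Without either A549 library the list had 3 lower and 1 higher.

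Among the P450 enzymes of less settled substrate, CYP2S1 and CYP20A1 went opposite ways. CYP2S1 (ENSG00000167600.9), an epithelial P450 that the aryl hydrocarbon receptor is known to induce, was at 62.6 and 63.6 CPM in A549 and at 1.62 and 1.97 CPM in TD. The mean went from 63.1 ± 0.744 to 1.79 ± 0.246 CPM (SD, n = 2), and the log2 change was -5.12 (SE 0.12, adjusted p = 3.68e-05), or 34.8-fold lower. CYP20A1 was at 7.19 and 8.06 CPM in A549 and at 10.9 and 11.1 CPM in TD, a log2 change of 0.53 (SE 0.12, adjusted p = 0.0220). That call was lost without A549 replicate 1 (0.120, and 0.0510 with protein-coding rows alone), without A549 replicate 2 (0.0638) and by DESeq2 (0.0604). CYP2W1, a form known from colorectal tumours, had 21 and 12 counts in A549 and 3 and 13 in TD, or 0.754 and 0.404 CPM against 0.103 and 0.320 CPM, with a gap smaller than the difference between replicates. It was not called (log2 change -1.39, SE 0.69, adjusted p = 0.176), but it was under 6 alternatives, among them protein-coding rows alone (0.0409) and without TD replicate 2 (0.00566). The other 5 genes of this class had at most 2 counts in any library.

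Many genes that carry electrons to P450 enzymes or make or break down haem were lower in TD. Of 21 genes, all tested, 12 were called lower and 2 higher, against 21.4% lower and 21.6% higher among all tested genes, and the lower ones include HMOX1, BLVRA and BLVRB of haem breakdown. The list had a median log2 change of -0.54 against -0.04 over all tested genes. POR, the reductase of microsomal P450 enzymes, fell from 172 and 172 CPM to 56.9 and 78.0 CPM (log2 change -1.35, SE 0.16, adjusted p = 0.00307). CYB5A, cytochrome b5, an accessory electron donor, fell from 148 and 146 CPM to 14.1 and 16.7 CPM (-3.25, SE 0.11, adjusted p = 6.89e-05). BLVRB, a biliverdin reductase of haem breakdown, fell from 419 and 418 CPM to 122 and 146 CPM. The 2 that rose were PGRMC1, from 188 and 192 CPM to 263 and 287 CPM, and PGRMC2, from 73.6 and 73.2 CPM to 124 and 122 CPM, both haem-binding membrane proteins. Leaving out each library in turn gave 11 to 13 lower and 2 higher.

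**Figure D5:**
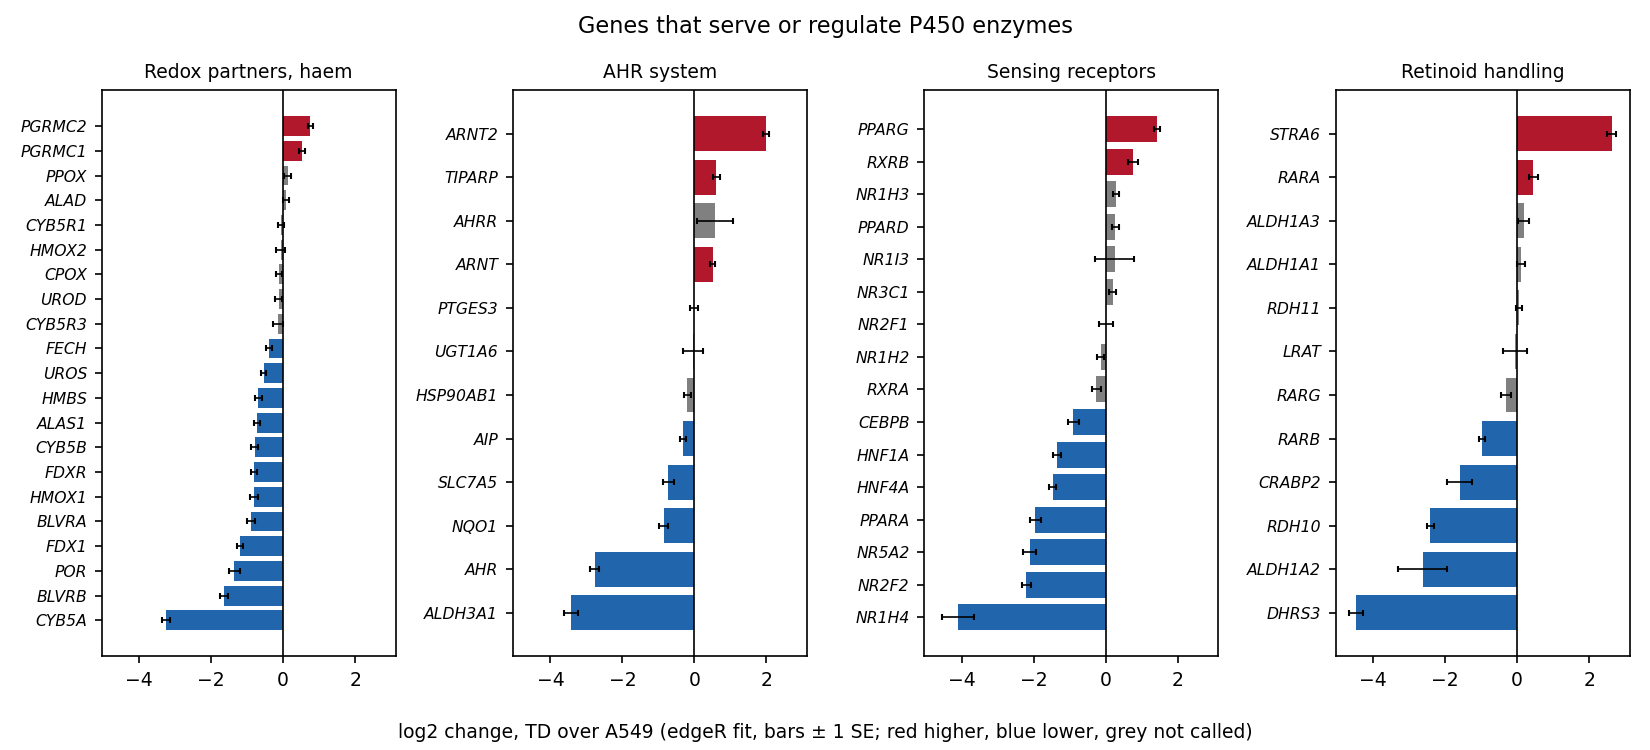
The log2 change of TD over A549 with bars of 1 SE for genes that serve or regulate P450 enzymes, in 4 lists; red bars were called higher, blue lower and grey not called. CYB5A, ALDH3A1, NR1H4 and DHRS3 are the lowest bars of their lists, and ARNT2, PPARG and STRA6 the highest of theirs.

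The aryl hydrocarbon receptor (AHR) is a ligand-activated factor that pairs with ARNT and induces CYP1 genes. AHR stood at 39.7 and 42.5 CPM in A549 and at 5.45 and 6.54 CPM in TD, a log2 change of -2.77 (SE 0.12, adjusted p = 0.000134). ARNT went the other way, from 37.4 and 37.8 CPM to 54.4 and 52.4 CPM, and ARNT2 rose from 8.05 and 8.29 CPM to 32.0 and 32.7 CPM (1.98, SE 0.08, adjusted p = 0.000114). ALDH3A1, an aldehyde dehydrogenase that AHR and NRF2 can induce, fell from 983 and 955 CPM to 74.5 and 104 CPM. TIPARP, another induced gene, rose from 13.4 and 15.1 CPM to 20.8 and 22.6 CPM, a call lost without A549 replicate 1 (0.0530). ARNT was not called without A549 replicate 1 (0.0617) or replicate 2 (0.0543). Of the 12 genes of this list, 5 were called lower and 3 higher, against 21.4% lower and 21.6% higher among all tested genes. The list had 3 lower and 1 higher without A549 replicate 1, and 3 lower and 2 higher without A549 replicate 2.

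Of 19 receptors and liver-type factors known to control P450 genes, 16 were tested, 7 were called lower and 2 higher, against 21.4% lower and 21.6% higher among all tested genes. NR1H4, the bile acid receptor FXR, fell from 1.83 and 2.16 CPM to 0.069 and 0.148 CPM (log2 change -4.11, and -4.77 without TD replicate 2), and NR2F2 fell from 81.8 and 78.1 CPM to 15.3 and 19.3 CPM. PPARG, a fatty acid receptor, rose from 18.5 and 19.3 CPM to 49.0 and 52.4 CPM, and RXRB, a partner receptor, from 6.40 and 5.76 CPM to 9.68 and 10.8 CPM. RXRB lost its call without A549 replicate 2 (0.0625), which left 1 called higher, while 4 were called higher without TD replicate 1. NR1I2, the pregnane X receptor that drives CYP3A4 in liver, was not tested. The summed level of 5 hepatocyte markers was 5.75 and 5.86 CPM in A549 and 4.86 and 5.90 CPM in TD. Within that list APOA1 had 3.02 and 2.49 CPM in A549 and 0 counts in TD, while SERPINA1 rose from 2.26 and 2.93 CPM to 4.82 and 5.85 CPM.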

How the data were processed

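The deposited files, 1 per library, hold unscaled read counts per gene: the authors' values are whole numbers with differing totals. Tools were FastQC 0.11.8, STAR 2.7.1a and HTSeq 0.11.2 on build hg19 (GRCh37), according to the submitters' processing notes. The kit marks strand, but which strand setting and annotation release the counting used is not given in the sources used here, so values of overlapping and antisense genes are uncertain. Reads given to no gene stayed out of library sizes: 6.12% to 7.79% lay outside genes, 2.34% to 2.56% in more than 1 gene, and 8.08% to 9.22% aligned more than once.

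Of 57820 identifiers, 52338 were paired with a symbol and type from GENCODE 29, which is on GRCh38 and served for names, lengths, windows and gene order only. The fit used edgeR 4.0.16 in R 4.3.3 on all rows (TMM, default filter with a minimum count of 10, quasi-likelihood test). It was also run on counts simulated with the fitted spread, which cannot show whether that spread is right. SE is the size of the change divided by the square root of F. DESeq2 1.42.0 and limma 3.58.1 gave alternatives. A fold against 0 counts sets 3 counts over the group, and 1 to 3 counts give a ratio with a 95% exact interval. The P450 genes, lists and tests were chosen with earlier results of these data known. All tested P450 genes are named, with full statistics from 2-fold and 1 CPM upward, and from each list the 2 called genes with the largest change in each direction. A gene of the retinoid list is not reported here and was left out of that list's counts. Further genes named were POR, AHR, ARNT, VDR and the P450 enzymes outside the name rule. The untested P450 genes given singly, those beside the CYP4F cluster and markers were named after their values were seen. So were HMOX1, BLVRA, ALDH1A1, ALDH1A3, APOA1, SERPINA1 and NR1I2. Promoters came from RefSeq, which held 15 of the 20 tested genes; CYP1B1 and CYP4F12 have no entry there.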

Additional observations from a re-analysis of the deposited data

How the results depend on the processing

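Alternatives were other scalings, tests, filters and gene sets, thinning, the replicate block and leaving out each library. CYP1B1, CYP2S1, CYP4F3, CYP4F11 and CYP39A1 were called lower under every alternative in which they were tested. The number called higher was 3, but 1 by DESeq2, and 0 against a 1.5-fold change and 0 with the replicate block (1 and 3 at an unadjusted p below 0.05 in edgeR). Leaving out each library in turn gave 1 to 5 higher and 5 to 11 lower, and 2 to 4 and 10 to 12 with protein-coding rows alone. The sign of CYP27B1, never called, turned to -0.048 without TD replicate 1 among protein-coding rows. The cause was not tested. The replicate block called 8 lower, and with protein-coding rows alone 4 higher and 12 lower, CYP24A1 among them (-0.22, adjusted p = 0.0240). Same-numbered libraries did not deviate together (r = -0.079 across 17785 genes). With only 2 numbers this cannot show whether such libraries are paired, and the labels do not say. Without an A549 library, the spread rests on the TD pair and the lone A549 library is assumed to vary alike. The coefficient of variation was then 34.1% and 34.0%, against 20.1% with all libraries and 7.54% with protein-coding rows alone. On all rows it was 7.08% without TD replicate 1 and 7.08% without TD replicate 2. Calls lost on all rows without an A549 library were thus lost in fits with the widest spread. The source of that spread was not tested. With no filter 11 were called lower, the added gene being CYP2B6. The stricter filter of 5 CPM tested 8 of these genes and called 2 higher and 5 lower. Depth limits the 34 untested genes, whose highest count was 13.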

Other observations

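P450 enzymes outside the name rule behaved in different ways. TBXAS1, thromboxane synthase, was at 0.611 and 0.809 CPM in A549 and at 3.52 and 3.10 CPM in TD (log2 change 2.21, SE 0.27, adjusted p = 0.00319 by edgeR's quasi-likelihood test). CYP51A1, the lanosterol demethylase, was at 22.0 and 18.7 CPM in A549 and at 14.7 and 21.1 CPM in TD, with overlapping lines and no call (adjusted p = 0.514). PTGIS, prostacyclin synthase, had at most 1 count in any library.

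Among the tested non-coding rows with a P450 name, CYP1B1-AS1, CYP4F35P, CYP4F29P and CYP4F26P were called lower in TD, and CYP2F2P, CYP2T1P, CYP51A1P1 and CYP51A1P2 were not called. CYP1B1-AS1, antisense to CYP1B1, was at 1.19 and 1.31 CPM in A549 and at 0.103 and 0.172 CPM in TD (log2 change -3.12, SE 0.42, adjusted p = 0.00452). Without the strand setting it is not known how reads were counted where exons of this row and of CYP1B1 overlap. The pseudogene CYP4F35P had 175 and 111 counts in A549 and 6 and 3 in TD (-5.19, SE 0.56, adjusted p = 0.00217). CYP4F29P, another pseudogene, had 67 and 44 counts in A549 and 3 and 0 in TD. TD replicate 2 held the lower count for both, and its share of pseudogene counts was 0.373% against 1.11% in TD replicate 1; the part of that in these values was not tested.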
